A study of Mus musculus with 12 samples.

Results

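The response of the liver to a long high-fat diet was read in wild-type mice by setting 3 livers from animals on the high-fat diet (HFD) against 3 livers from animals on normal chow (ND). These 6 libraries were chosen by their genotype and diet labels from the 12 of the series, in which the other 6 come from Mlkl-/- mice on the same 2 diets. Per the labels, the HFD held 36% fat and gave 59% of its energy as lipid. Mice entered the diets when 8 to 9 weeks old, and the labels give 25 weeks of feeding for each sample, where the series text gives a span that starts at 16 weeks. The series concerns diet-induced obesity and fatty liver, and MLKL, absent in the other genotype, is the pseudokinase that breaks the plasma membrane in necroptosis. Mlkl held 72 to 252 counts in each wild-type library and 9 to 34 in each Mlkl-/- library. Animals had been picked for sequencing near the mean organ weights, so the spread between these livers may be narrower than among all mice fed. The labels give no strain or sex. Liver RNA was sequenced from the 3' ends of mRNA in bulk, so fewer cells of a type and less RNA per cell cannot be told apart.

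Dietary fat reaches the liver as fatty acids, which hepatocytes burn, export in lipoproteins or store in droplets. Genes for making, desaturating and storing fat are driven by the SREBP, LXR and PPAR families of transcription factors, and cholesterol synthesis is held by SREBP2, which is released when membrane sterol falls. Hepatocytes also make most plasma proteins and carry the cytochrome P450 enzymes that oxidise drugs and steroids. A fatty liver can draw monocytes that turn into lipid-associated macrophages, and can activate stellate cells, the source of scar collagen.

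Of 18098 genes tested, 766 (4.23%) were called in edgeR's quasi-likelihood test at an adjusted p under 0.05, with 366 higher on HFD (2.02%) and 400 lower (2.21%). Among the calls, 212 genes were over 2-fold higher and 113 over 2-fold lower, and 50 and 31 were past 4-fold. The 3 HFD and 3 ND values did not overlap in 764 of the 766 calls. The same held for 5274 of all genes tested (29.1%), so a lack of overlap adds little to a call. The median log2 fold change (HFD over ND) was 1.1 in genes called higher, -0.82 in genes called lower and -0.01 in all genes tested. Genes called lower were the more abundant set: they held 14.87%, 14.96% and 14.38% of the counts in the ND libraries and 8.07%, 5.73% and 7.84% in the HFD libraries. Genes called higher held 1.11% to 1.23% on ND and 2.76% to 4.17% on HFD. The 6 libraries held 19435391 to 32120426 counts. In CPM, counts scaled to the library's size, the liver markers Alb (67773, 70491 and 71099 CPM on ND and 58107, 40801 and 43069 CPM on HFD) and Ttr (5128, 5686 and 4918 CPM on ND and 4179, 3712 and 3634 CPM on HFD) were abundant in all 6.

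HFD animals were not alike. Replicate 2 had the highest HFD value in 256 of the 366 genes called higher, against 51 for replicate 1 and 59 for replicate 3. Among the 400 genes called lower, the lowest HFD value was in replicate 2 for 189, in replicate 3 for 181 and in replicate 1 for 30. Without HFD replicate 2 the count of calls was 63, and without replicates 1 and 3 it was 359 and 533. Leaving out ND replicates 1, 2 and 3 gave 198, 100 and 113 calls. All 766 kept their direction in each of these fits, and 56 (43 higher, 13 lower) kept their call in all 6. HFD replicates 2 and 3 also held 6054 and 6584 raw CPM summed over 8 loci (such as the small RNA Mir6236 and Lars2, a tRNA synthetase gene of mitochondria), against 534 in HFD replicate 1 and 378 to 473 on ND. With this level as a term, 158 genes were called (95 higher, 63 lower), 138 of them among the 766; its part in the result was not tested. Scaling by library size alone, which moved the median of all genes to 0.19, gave 921 genes higher and 181 lower. Each HFD title carries a different number code from the ND titles (25 and 29 against 23 and 27), so those codes and diet cannot be told apart.

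**Figure D1:**
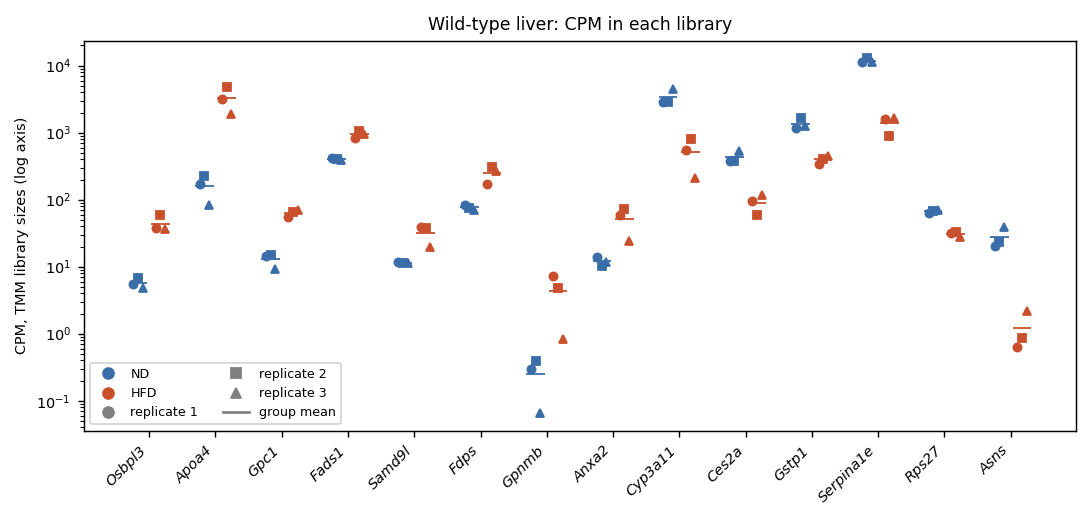
CPM (TMM library sizes, log axis) of 14 called genes in the 6 wild-type libraries, with blue for ND, red for HFD, a marker shape per replicate and a line at each group mean. Every gene shown has its 3 HFD values on 1 side of its 3 ND values, with Rps27 tight within each diet and Gpnmb spread from 0.820 to 7.25 CPM on HFD. Such a lack of overlap was found in 764 of the 766 calls and in 29.1% of all genes tested.

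Fatty acid synthesis and desaturation genes were higher on HFD, with 6 of 18 tested members called higher and none lower (median log2 fold change 1.14). Fads1, a desaturase of polyunsaturated fatty acids (ENSMUSG00000010663, chr19:10182888-10196877 on the plus strand of mm10), had 420.2, 408 and 389 CPM on ND and 827, 1066 and 959 CPM on HFD. The 3 HFD livers lay close together and well above the ND livers, and the log2 fold change was 1.23 ± 0.17, adjusted p = 0.00483 (± gives the SE here and below). Its neighbour Fads2, which acts before it on the same fatty acids, had 469, 395 and 281 CPM on ND and 857, 1156 and 867 CPM on HFD (1.33 ± 0.25, adjusted p = 0.0142). The elongase Elovl5 had 474, 343 and 451 CPM on ND and 1094, 1633 and 962 CPM on HFD, highest in HFD replicate 2 and without overlap (1.54 ± 0.28, adjusted p = 0.0124). Acacb, the acetyl-CoA carboxylase that makes malonyl-CoA at mitochondria, had the widest rise among abundant members, with 42.99, 30.5 and 35.1 CPM on ND and 151, 235 and 163 CPM on HFD (2.34 ± 0.38, adjusted p = 0.0129). Acss2, which makes acetyl-CoA from acetate, also rose (1.13 ± 0.22, adjusted p = 0.0165), as did the low-abundance lipase gene Pnpla3 (2.88 ± 0.63, adjusted p = 0.0236), where HFD replicate 2 stood at 7.74 CPM and the other HFD livers at 1.64 and 1.4. The abundant lipogenic genes missed the threshold: Scd1, the stearoyl-CoA desaturase, had 8716, 7173 and 10552 CPM on ND and 17040.0, 23117 and 11614 CPM on HFD (0.97 ± 0.28, adjusted p = 0.0652), and Fasn, fatty acid synthase, had 330.4, 285 and 181 CPM on ND and 480.2, 959.8 and 347 CPM on HFD (1.17 ± 0.38, adjusted p = 0.111). Mlxipl, which encodes the glucose-responsive factor ChREBP, lay below 0 (-0.66 ± 0.19, adjusted p = 0.0649). Members called higher numbered 4, 1 and 1 without ND replicates 1, 2 and 3, and 6, 1 and 8 without HFD replicates 1, 2 and 3. Fads1 kept its call in all 6 of these fits.

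Cholesterol synthesis had the largest share of called members among the 54 gene lists, with 14 of 25 higher (56%) and none lower, at a median log2 fold change of 0.93. The called members span the mevalonate and sterol steps. Hmgcs1, the cytosolic HMG-CoA synthase, had 123, 82.4 and 117 CPM on ND and 231, 604 and 302 CPM on HFD (1.82 ± 0.39, adjusted p = 0.0301). HFD replicate 2 was the highest and replicate 1 the lowest of the HFD livers, still above each ND liver. Fdps, farnesyl diphosphate synthase (ENSMUSG00000059743, chr3:89093588-89101959 on the minus strand of mm10), had 83.5, 75.4 and 70.9 CPM on ND and 173, 307 and 267 CPM on HFD (1.7 ± 0.25, adjusted p = 0.00538). Sqle, the squalene epoxidase and a rate-limiting step, had 18.2, 15.6 and 24.9 CPM on ND and 32.1, 108 and 76.03 CPM on HFD (1.88 ± 0.44, adjusted p = 0.0428). Mvd, which makes isopentenyl diphosphate, had 7.52, 6.24 and 4.62 CPM on ND and 14.3, 34.8 and 24.6 CPM on HFD (2.01 ± 0.41, adjusted p = 0.0256). Mvk, Pmvk, Fdft1, Lss, Cyp51, Msmo1, Nsdhl, Hsd17b7, Sc5d and Dhcr7, the other mevalonate and sterol steps called, rose by 0.72 to 1.23 on the log2 scale. Insig1, which holds SREBP in the endoplasmic reticulum (0.29 ± 0.20, adjusted p = 0.461), did not pass. The list's mean log2 deviation was -0.39, -0.52 and -0.42 in ND replicates 1 to 3 and 0.04, 0.77 and 0.52 in HFD replicates 1 to 3, so HFD replicate 1 lay nearest to the ND livers. Called members numbered 5, 1 and 1 without ND replicates 1, 2 and 3, and 16, 1 and 7 without HFD replicates 1, 2 and 3, and 1 remained called with the 8-locus level as a term. That level is high in the same 2 HFD livers, 2 and 3, where the list is highest, and its part in the result was not tested. Fdps alone kept its call in all 6 leave-one-out fits.

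Promoter windows from RefSeq (GRCm38.p6) were searched on both strands over the 250 bases before the start for CCAAT, the box bound by NF-Y, and for TCACNCCAC, the sterol response element form bound by SREBP. CCAAT was found in 16 of the 17 cholesterol genes with a window (94.1%), 11 of 11 among those called, and in 40.4% of 11153 promoters of tested genes. TCACNCCAC was found in 1 of the 17, Hmgcs1, and in 1.3% of the 11153. A match is a description of the letters and no evidence of binding. Hmgcs1 is shown for its sterol element and Lss, Nsdhl and Mvd for their CCAAT boxes, with the motif in capitals (ATTGG is CCAAT on the other strand).
Hmgcs1 (chr13:119690184-119690252, plus strand): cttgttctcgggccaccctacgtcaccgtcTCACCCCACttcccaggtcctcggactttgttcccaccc
Lss (chr10:76531513-76531577, plus strand): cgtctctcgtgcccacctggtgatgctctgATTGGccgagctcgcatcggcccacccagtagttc
Nsdhl (chrX:72918382-72918446, plus strand): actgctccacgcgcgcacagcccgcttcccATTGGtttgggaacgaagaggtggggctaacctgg
Mvd (chr8:122443423-122443479, minus strand): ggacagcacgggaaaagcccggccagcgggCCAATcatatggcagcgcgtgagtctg

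Cidea, a protein that fuses lipid droplets (0.855, 0.688 and 0.229 CPM on ND and 19.8, 27.9 and 13.8 CPM on HFD), was near the detection floor on ND and rose in all 3 HFD livers (5.16 ± 1.00, adjusted p = 0.0264). In the Mlkl-/- livers its log2 fold change was 6.72. Other droplet genes called were the coat proteins Plin4 (20.3, 28.3 and 28.03 CPM on ND and 61.2, 104 and 46.7 CPM on HFD) and Plin3 (36.4, 35.1 and 38.9 CPM on ND and 51.7, 71.2 and 48.3 CPM on HFD) and the hormone-sensitive lipase Lipe (10.4, 11.5 and 8.45 CPM on ND and 18.02, 20.5 and 30.2 CPM on HFD), at log2 fold changes of 1.47, 0.63 and 1.18. These made 4 of 20 droplet genes called higher and none lower, but the count was 0, 0 and 0 without ND replicates 1, 2 and 3, and 1, 0 and 4 without HFD replicates 1, 2 and 3, and 0 with the 8-locus term. Plin2, the main droplet coat of hepatocytes, did not pass (0.25 ± 0.29, adjusted p = 0.693). Mogat1, which builds diacylglycerol from monoacylglycerol, had 0.769, 0.835 and 0.753 CPM on ND and 9.73, 11.99 and 6.7 CPM on HFD (3.59 ± 0.60, adjusted p = 0.0124) and was the 1 called member of 12 triglyceride synthesis genes tested.

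Osbpl3, an oxysterol-binding lipid-transfer protein (ENSMUSG00000029822, chr6:50293330-50456201 on the minus strand of mm10), was among the most reproducible rises. It stood at 5.43, 6.83 and 4.81 CPM on ND and 37.4, 58.5 and 36.4 CPM on HFD. The lowest HFD liver was far above the highest ND liver, and the log2 fold change was 2.96 ± 0.26, adjusted p = 0.00016. It was the 1 called member of 15 oxysterol-binding and START family genes tested, and it kept its call in all 6 leave-one-out fits and with the 8-locus term. Apoa4, an apolipoprotein of triglyceride-rich particles (ENSMUSG00000032080, chr9:46240696-46243459 on the plus strand of mm10), had 173, 223 and 83.1 CPM on ND and 3175, 4768 and 1919 CPM on HFD (4.36 ± 0.62, adjusted p = 0.00926). All HFD livers were far above the ND livers, and replicate 2 was the highest. The phospholipid transfer protein gene Pltp had 42.6, 23.03 and 31.9 CPM on ND and 119, 197 and 105 CPM on HFD (2.11 ± 0.29, adjusted p = 0.00538), and Apoc2, the activator of lipoprotein lipase, had 158, 168 and 142 CPM on ND and 307, 359 and 203 CPM on HFD (0.89 ± 0.20, adjusted p = 0.0236). Apom and Apoc1 were called lower, so the 22 lipoprotein genes split 3 higher and 2 lower. Leaving out 1 library kept 2 or 3 higher and 0 or 1 lower, with no lower call without ND replicate 1, 2 or 3 or HFD replicate 2 or 3. For uptake, the very-low-density lipoprotein receptor Vldlr (1.54, 1.72 and 1.21 CPM on ND and 5.81, 8.77 and 4.29 CPM on HFD) and the fatty acid transporter Cd36 (61.3, 51.7 and 80.5 CPM on ND and 260.3, 325 and 159.5 CPM on HFD) rose by 2.09 ± 0.41 and 1.94 ± 0.46 on the log2 scale (adjusted p = 0.0148 and 0.0471). Fabp2, the intestinal-type fatty acid binding protein, had 76.3, 63.3 and 78.3 CPM on ND and 169, 150.0 and 168 CPM on HFD, tight within both diets (1.16 ± 0.17, adjusted p = 0.00538). Those 3 were the called members of 20 uptake and carrier genes, a count that was 1, 1 and 1 without ND replicates 1, 2 and 3, and 2, 1 and 3 without HFD replicates 1, 2 and 3.

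Of 25 genes of fatty acid oxidation and ketogenesis 3 were called higher: Hadh, the mitochondrial hydroxyacyl-CoA dehydrogenase (252, 254 and 239.6 CPM on ND and 369, 396 and 394 CPM on HFD, 0.64 ± 0.15, adjusted p = 0.0288), Bdh1, which interconverts ketone bodies (195, 188 and 190.5 CPM on ND and 291, 348 and 337 CPM on HFD, 0.77 ± 0.15, adjusted p = 0.0146), and the uncoupling protein gene Ucp2 (19.95, 15.9 and 10.7 CPM on ND and 31.7, 58.7 and 30.6 CPM on HFD, 1.38 ± 0.30, adjusted p = 0.0263). The median over the list was 0.26. Its calls numbered 1, 0 and 0 without ND replicates 1, 2 and 3, and 2, 0 and 2 without HFD replicates 1, 2 and 3, and 0 with the 8-locus term. The ceramide and sphingomyelin genes Smpd3, Asah2, Smpdl3a and Asah1 were called higher among 23, led by the neutral sphingomyelinase Smpd3 (1.45, 1.87 and 1.34 CPM on ND and 9.73, 17.1 and 4.58 CPM on HFD). For that list the calls numbered 0, 0 and 1 without ND replicates 1, 2 and 3, and 0, 0 and 3 without HFD replicates 1, 2 and 3. Pparg, the lipogenic nuclear receptor of adipocytes, stood just inside the threshold (9.14, 6.09 and 8.15 CPM on ND and 16.7, 24.1 and 13.02 CPM on HFD, 1.2 ± 0.32, adjusted p = 0.0496).

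Gbe1, the glycogen branching enzyme, had 81.02, 83.8 and 79.3 CPM on ND and 160.2, 207 and 159.6 CPM on HFD, without overlap (1.11 ± 0.17, adjusted p = 0.00538). The list of 33 glycolysis, gluconeogenesis and glycogen genes had 3 higher (9.09%, against 2.02% of all genes): the hexokinase Hk2, the glycogen-targeting subunit Ppp1r3g and pyruvate carboxylase, Pcx (388, 356 and 336 CPM on ND and 631, 793 and 663 CPM on HFD, 0.95 ± 0.16, adjusted p = 0.00888). This count was 1, 1 and 0 without ND replicates 1, 2 and 3, and 1, 0 and 2 without HFD replicates 1, 2 and 3, and 0 with the 8-locus term. None of 22 insulin signalling and FOXO1 target genes passed, and Insr, the insulin receptor, had 114, 121 and 149.7 CPM on ND and 128, 116 and 133 CPM on HFD (-0.03 ± 0.16, adjusted p = 0.946). Pericentral WNT targets gave 5 higher and 1 lower of 21. The number higher was 3, 1 and 2 without ND replicates 1, 2 and 3, and 4, 0 and 3 without HFD replicates 1, 2 and 3, and 1 with the 8-locus term. Glul, the glutamine synthetase of the cells around the central vein, had 393, 381 and 387 CPM on ND and 869.9, 1402 and 1151 CPM on HFD (1.56 ± 0.27, adjusted p = 0.0102), and Axin2 and Rnf43, feedback inhibitors of WNT, rose by 1.29 and 0.90. Cyp2e1 (0.48 ± 0.20, adjusted p = 0.191) and Lgr5 (0.07 ± 0.28, adjusted p = 0.925) of the same zone did not pass. Among retinoid genes, the retinol dehydrogenases Rdh9 (80.4, 58.8 and 59.2 CPM on ND and 166, 196 and 193 CPM on HFD), Rdh16 and Rdh11 were higher, while Rdh16f2 and the retinoic acid hydroxylase Cyp26a1 (8.16, 4.17 and 10.2 CPM on ND and 1.00, 0.789 and 1.35 CPM on HFD) were lower. Retinoid genes called higher numbered 1, 1 and 2 without ND replicates 1, 2 and 3, and 3, 1 and 3 without HFD replicates 1, 2 and 3, and those called lower 0, 0 and 0 without ND replicates 1, 2 and 3, and 1, 0 and 0 without HFD replicates 1, 2 and 3.

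Genes of the Cyp3a cluster fell, and other lists of drug and steroid metabolism were mixed. Cyp3a11, a major drug- and steroid-oxidising P450 of mouse liver (ENSMUSG00000056035, chr5:145854426-145879964 on the minus strand of mm10), had 2821, 2886 and 4443 CPM on ND and 547, 809.8 and 213 CPM on HFD. HFD replicate 3 was the lowest and ND replicate 3 the highest, with no overlap (-2.69 ± 0.49, adjusted p = 0.0188). Cyp3a41a, Cyp3a41b and Cyp3a44 moved by -2.71, -2.68 and -2.75 on the log2 scale, and Cyp3a25 (709, 798 and 1065 CPM on ND and 432, 366 and 325 CPM on HFD) and Cyp3a59 by -1.19 and -1.19. These 6 were the called members of 20 Cyp3 and Cyp4 genes, all lower, at a list median of -0.89. Members called lower numbered 3, 2 and 1 without ND replicates 1, 2 and 3, and 2, 2 and 9 without HFD replicates 1, 2 and 3, and scaling by library size alone gave 3 higher and 6 lower. The Cyp3a genes are near-identical at places and how reads with several matches were counted is not stated, so single values within the family are uncertain. Of 37 Cyp1 and Cyp2 genes 4 fell (Cyp2c23, Cyp2c70, Cyp2c29 and Cyp2j9), at a list median of -0.13, and the count was 1, 0 and 0 without ND replicates 1, 2 and 3, and 1, 0 and 7 without HFD replicates 1, 2 and 3. Cyp2c29, an abundant arachidonate and drug oxidase, had 692, 553 and 879 CPM on ND and 358, 255 and 485 CPM on HFD (-0.95 ± 0.25, adjusted p = 0.0434).

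Ces2a, a carboxylesterase (ENSMUSG00000055730, chr8:104734003-104741634 on the plus strand of mm10), had 381, 383 and 532 CPM on ND and 94.2, 60.1 and 116 CPM on HFD and no overlap (-2.27 ± 0.28, adjusted p = 0.00344). The pi-class glutathione transferase Gstp1 had 1171, 1658 and 1277 CPM on ND and 342, 411 and 443 CPM on HFD (-1.78 ± 0.26, adjusted p = 0.00538), and its near copy Gstp2 had 754, 994 and 782 CPM on ND and 192, 237 and 246 CPM on HFD (-1.91 ± 0.27, adjusted p = 0.00538). All 3 kept their call in the 6 leave-one-out fits and with the 8-locus term. Gstm2, a mu-class transferase, went the other way (35.4, 29.3 and 49.3 CPM on ND and 104, 94.2 and 62.05 CPM on HFD, 1.19 ± 0.23, adjusted p = 0.0165), so the 48 conjugating enzyme and esterase genes gave 1 higher and 6 lower, with 25 above 0, 23 below and a median of 0.01. The lower calls were 4, 3 and 3 without ND replicates 1, 2 and 3, and 5, 3 and 8 without HFD replicates 1, 2 and 3. Of 29 NRF2 target and redox genes 1 passed (3.45%, against 4.23% of all genes), the pentose phosphate enzyme Pgd (1.28 ± 0.22, adjusted p = 0.011).

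Many plasma protein genes, among them the most abundant genes called, fell. In the list of 32 serpin and acute phase genes 12 were lower and none higher (median -0.53), and in the list of 40 coagulation and complement genes 8 were lower and none higher (median -0.46). Serpina1e, an alpha-1-antitrypsin gene (ENSMUSG00000072849, chr12:103946931-103958975 on the minus strand of mm10), had 11317, 12811 and 11159.7 CPM on ND and 1614, 894 and 1673 CPM on HFD. It had the largest fall among the 10 most abundant genes called lower, with HFD replicate 2 the lowest (-3.08 ± 0.45, adjusted p = 0.00778). Its paralogs Serpina1a, Serpina1b, Serpina1c and Serpina1d fell by 1.03 to 1.35 on the log2 scale, from levels of 8918 to 15391 CPM in the ND libraries. How reads with several matches were counted among these copies is not stated. Serpina3k, a kallikrein-binding serpin, had 10789, 11282 and 10093 CPM on ND and 4016, 1652 and 6023 CPM on HFD (-1.46 ± 0.34, adjusted p = 0.0305). The 3 fibrinogen chains moved together: Fgb had 5679, 4682 and 5295 CPM on ND and 2486, 1876 and 2415 CPM on HFD (-1.21 ± 0.25, adjusted p = 0.0195), and Fga and Fgg had log2 fold changes of -1.19 and -1.09 (adjusted p = 0.043 and 0.0248). C8a and C9 of the membrane attack complex, and the inter-alpha-trypsin inhibitor chains Itih1, Itih2 and Itih3, were also lower. The serum amyloid genes Saa1 (-0.83 ± 1.19, adjusted p = 0.762) and Saa2 (-0.82 ± 1.34, adjusted p = 0.795), inducible acute phase genes, did not pass. Members called lower in the serpin list numbered 4, 2 and 4 without ND replicates 1, 2 and 3, and 7, 2 and 8 without HFD replicates 1, 2 and 3. In the coagulation and complement list they numbered 0, 0 and 0 without ND replicates 1, 2 and 3, and 1, 0 and 6 without HFD replicates 1, 2 and 3, and in both lists none was called with the 8-locus term.

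Genes for secreted hormones gave 1 higher and 3 lower of 36, and 2 of 25 iron and haem genes were lower. Hamp, which encodes hepcidin, the hormone that limits iron export, had 755, 672 and 594 CPM on ND and 307, 142 and 178 CPM on HFD (-1.69 ± 0.41, adjusted p = 0.0471). In the Mlkl-/- livers Hamp had a log2 fold change of 0.76, and its call was kept in 1 of the 6 leave-one-out fits. The fetuin genes Ahsg (5879, 5623 and 4463 CPM on ND and 3457, 2319 and 2968 CPM on HFD) and Fetub (289, 354 and 370.0 CPM on ND and 172, 138 and 206 CPM on HFD) had log2 fold changes of -0.87 and -0.97 (adjusted p = 0.0277 and 0.0201). Lect2, a secreted hepatokine, rose (49.7, 49.4 and 57.95 CPM on ND and 97.5, 90.1 and 123 CPM on HFD, 0.98 ± 0.23, adjusted p = 0.0305). The hormone genes called lower numbered 1, 0 and 0 without ND replicates 1, 2 and 3, and 1, 0 and 3 without HFD replicates 1, 2 and 3. Of 35 hepatocyte transcription factor genes tested 1 was called higher and 1 lower, at a list median of 0.01. This is 5.71% called, against 4.23% of all genes. The lower one was Foxa3 (49.2, 38.9 and 52.6 CPM on ND and 25.1, 16.97 and 27.9 CPM on HFD, -1.01 ± 0.21, adjusted p = 0.0173).

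Amino acid genes held 1 extreme. Asns, asparagine synthetase and a target of ATF4, had 20.6, 22.98 and 39.6 CPM on ND and 0.641, 0.85 and 2.22 CPM on HFD. The highest HFD liver was far below the lowest ND liver (-4.54 ± 0.95, adjusted p = 0.0363), yet the spread in both groups was wide and no leave-one-out fit kept the call. Atf4 itself had 68.1, 59.6 and 76.8 CPM on ND and 48.4, 47.4 and 47.7 CPM on HFD (-0.51 ± 0.13, adjusted p = 0.0452). Its call too was kept in no leave-one-out fit. Of the 31 ATF4 targets and tRNA synthetases tested, Asns and Atf4 were the 2 lower and Vldlr the 1 higher. The methyl-group and sulfur amino acid genes Gnmt, glycine N-methyltransferase (1238, 1490.3 and 1259.5 CPM on ND and 845, 521 and 670.4 CPM on HFD), Cth, cystathionine gamma-lyase (364, 456 and 529 CPM on ND and 271, 145 and 225 CPM on HFD), and Nnmt, nicotinamide N-methyltransferase (100.2, 179 and 195 CPM on ND and 67.8, 20.6 and 46.4 CPM on HFD), had log2 fold changes of -0.97, -1.07 and -1.82 (adjusted p = 0.0234, 0.0231 and 0.0346). The list of 25 one-carbon and methionine cycle genes had 3 lower and none higher, at a median of -0.04. Its lower calls numbered 2, 0 and 0 without ND replicates 1, 2 and 3. Without HFD replicates 1, 2 and 3 they numbered 3, 0 and 1, and with the 8-locus term 0. Of 39 urea cycle and amino acid breakdown genes 1, Sdsl, was called (2.56%, against 4.23% of all genes), at a list median of -0.35.

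**Figure D2:**
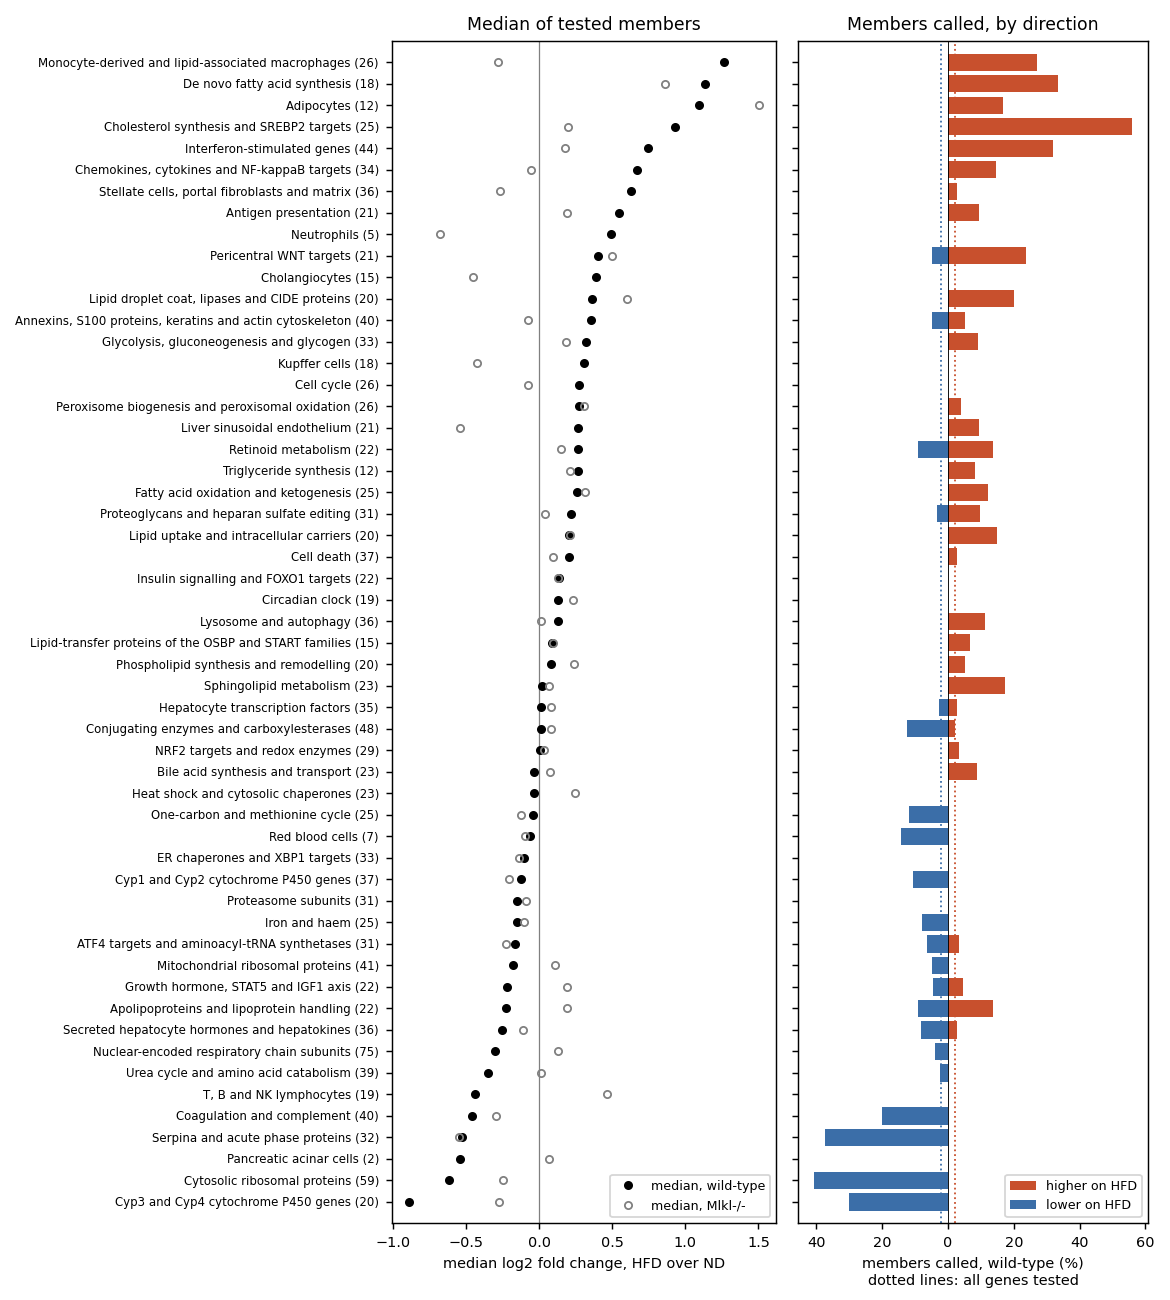
Each row is a gene list with its number of tested members. The left panel gives the median log2 fold change, HFD over ND, in wild-type (filled) and Mlkl-/- (open) livers, and the right panel gives the percent of members called in wild-type, red higher and blue lower, with dotted lines at 2.02% and 2.21% for all genes. Cholesterol synthesis has the longest red bar (56%) and cytosolic ribosomal proteins the longest blue bar (40.7%).

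Interferon-stimulated genes were higher in all 3 HFD livers: 14 of 44 were called higher and none lower, at a median log2 fold change of 0.74. Usp18, which restrains the type I receptor, had 2.52, 2.7 and 2.06 CPM on ND and 14.3, 9.83 and 5.88 CPM on HFD (2.05 ± 0.31, adjusted p = 0.00538), highest in HFD replicate 1. Samd9l had 11.7, 11.5 and 11.3 CPM on ND and 39.3, 37.8 and 19.6 CPM on HFD (1.49 ± 0.24, adjusted p = 0.00807) and the guanylate-binding protein gene Gbp3 had 3.76, 4.52 and 3.37 CPM on ND and 12.3, 9.74 and 8.34 CPM on HFD (1.39 ± 0.22, adjusted p = 0.00615). Ifit2, Ifit3, Oas1a, Oas1g, Ifi44, Ifi27, Ifi27l2a, Dhx58, Rtp4 and Igtp were also called, at 0.70 to 1.62. The antiviral genes Isg15 (0.45 ± 0.22, adjusted p = 0.263), Mx1 (0.18 ± 0.48, adjusted p = 0.877) and Irf7 (0.65 ± 0.24, adjusted p = 0.143) did not pass. Tap1 and Psmb9, neighbours that supply peptides to class I molecules, rose by 0.94 and 0.95, the 2 calls among 21 antigen presentation genes. The mean log2 deviation of the interferon list was -0.31, -0.34 and -0.46 in ND replicates 1 to 3 and 0.61, 0.30 and 0.20 in HFD replicates 1 to 3. Called members numbered 5, 5 and 7 without ND replicates 1, 2 and 3, and 6, 5 and 12 without HFD replicates 1, 2 and 3, and 11 remained with the 8-locus level as a term. Usp18, Samd9l and Gbp3 kept their calls in all 6 leave-one-out fits. In Mlkl-/- livers the list median was 0.17.

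The interferon-stimulated response element, searched as TTTC, any 2 bases and TTTC on both strands of the same windows, was found in 17 of 31 interferon-stimulated genes with a window (54.8%), in 5 of the 8 called ones, and in 3.46% of the 11153 promoters. Among all genes called higher the share was 4.14% of 266. The stretches of 4 of these 5 called genes are shown, each with 1 match in capitals (GAAA, 2 bases and GAAA is its other strand). Oas1g, not shown, has the same matched letters as Oas1a. Gbp3, Ifit3 and Oas1a each hold a further match, which overlaps the capitals in Gbp3 and Oas1a.
Ifit3 (chr19:34583343-34583412, plus strand): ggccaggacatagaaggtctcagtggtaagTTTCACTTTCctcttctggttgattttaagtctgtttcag
Gbp3 (chr3:142559969-142560038, plus strand): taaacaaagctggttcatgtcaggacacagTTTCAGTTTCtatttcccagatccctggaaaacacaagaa
Igtp (chr11:58199492-58199555, plus strand): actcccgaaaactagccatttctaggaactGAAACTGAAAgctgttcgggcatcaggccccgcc
Oas1a (chr5:120907526-120907575, minus strand): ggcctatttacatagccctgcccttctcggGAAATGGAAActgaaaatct

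Macrophage genes were higher on HFD, most of all in replicates 1 and 2. Among 26 markers of recruited, lipid-associated macrophages 7 were called higher and none lower, at the highest median of any list (1.26). Gpnmb, a lysosomal glycoprotein of lipid-laden macrophages, had 0.299, 0.393 and 0.0655 CPM on ND and 7.25, 4.76 and 0.82 CPM on HFD (4.14 ± 0.78, adjusted p = 0.0153), and the elastase Mmp12 had 0.769, 0.688 and 0.426 CPM on ND and 13.1, 8.83 and 1.59 CPM on HFD (3.66 ± 0.70, adjusted p = 0.0184). HFD replicate 3 was above ND in both but well under replicates 1 and 2. The chemokine receptors Ccr2 (1.83 ± 0.44, adjusted p = 0.0311) and Cx3cr1 (2.15 ± 0.47, adjusted p = 0.0231) and the monocyte attractant Ccl2 (3.13 ± 0.83, adjusted p = 0.0471) rose, all at low CPM. Cd36 and Cd63, also called, are expressed by hepatocytes or other cells too, and 10 of the 26 genes stand in another list as well. Trem2 (1.5 ± 0.47, adjusted p = 0.0888) and Spp1 (26.96, 24.3 and 25.6 CPM on ND and 59.3, 117 and 19.8 CPM on HFD, 1.35 ± 0.61, adjusted p = 0.258) did not pass, and Spp1 in HFD replicate 3 lay under all ND livers. Members called higher numbered 0, 0 and 0 without ND replicates 1, 2 and 3, and 2, 0 and 10 without HFD replicates 1, 2 and 3. The summed level of the list was 1124, 949 and 973 CPM in ND replicates 1 to 3. In HFD replicates 1 to 3 it was 1425, 1896 and 1125 CPM, so HFD replicate 3 was level with ND replicate 1. In raw CPM, without TMM scaling, the sums were 918 to 1121 on ND and 1201 to 2197 on HFD. In Mlkl-/- livers the list median was -0.28.

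The same 2 animals stood out in other non-hepatocyte lists. Mean log2 deviations of the 36 stellate cell and matrix genes were 0.00, -0.32 and -0.57 in ND replicates 1 to 3 and 0.65, 0.56 and -0.32 in HFD replicates 1 to 3. Col1a1, the main scar collagen, had 8.08, 4.81 and 3.41 CPM on ND and 22.7, 24.1 and 4.00 CPM on HFD (1.65 ± 0.67, adjusted p = 0.2). The 1 called member of the 36 (2.78%, against 4.23% of all genes) was Lum, a collagen-binding proteoglycan (4.53, 3.19 and 4.98 CPM on ND and 12.5, 9.95 and 6.75 CPM on HFD, 1.2 ± 0.23, adjusted p = 0.0153). Of these 36 genes, 1, 0 and 1 were called higher without ND replicates 1, 2 and 3. Without HFD replicates 1, 2 and 3 the counts were 0, 0 and 9. The list median was 0.63, and -0.27 in Mlkl-/- livers. The annexins Anxa2 (14.1, 10.2 and 11.6 CPM on ND and 59.7, 71.8 and 24.1 CPM on HFD, 2.11 ± 0.47, adjusted p = 0.0363) and Anxa5 (51.1, 39.1 and 54.3 CPM on ND and 175, 222 and 81.8 CPM on HFD, 1.73 ± 0.31, adjusted p = 0.0152) rose, and HFD replicate 3 was again the lowest of the HFD livers. The list of 40 annexin, S100, keratin and actin genes gave 2 higher and 2 lower, S100a1 and S100a13 (-0.61 and -0.71). Its members called higher numbered 0, 0 and 0 without ND replicates 1, 2 and 3. Without HFD replicates 1, 2 and 3 they numbered 1, 0 and 4. Of 18 Kupffer cell genes none passed (median 0.30), and of 21 sinusoidal endothelial genes the ligand gene Wnt2 and Dnase1l3 were higher. Adipocyte genes followed other animals, with deviations of -0.50, -0.14 and -0.61 in ND replicates 1 to 3 and -0.73, 0.92 and 1.06 in HFD replicates 1 to 3. Adipoq, the defining adipocyte hormone, had 0.171, 0.54 and 0.262 CPM on ND and 0.0801, 3.13 and 3.33 CPM on HFD (2.76 ± 0.94, adjusted p = 0.123), so it was near 0 in HFD replicate 1 and above the ND livers in the other two, the libraries with the higher 8-locus level. The 2 called members, Plin4 and Lipe, are also droplet genes. Immunoglobulin RNA was high in 1 ND liver: Ighm had 151, 7.51 and 5.6 CPM on ND and 15.7, 24.5 and 14.8 CPM on HFD. The pancreatic markers summed to 7.57 to 14.8 raw CPM on ND and 8.69 to 8.98 on HFD, and no marker of these lists was at 0 in all 6 libraries. The part of cell makeup in the other results was not tested.

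**Figure D3:**
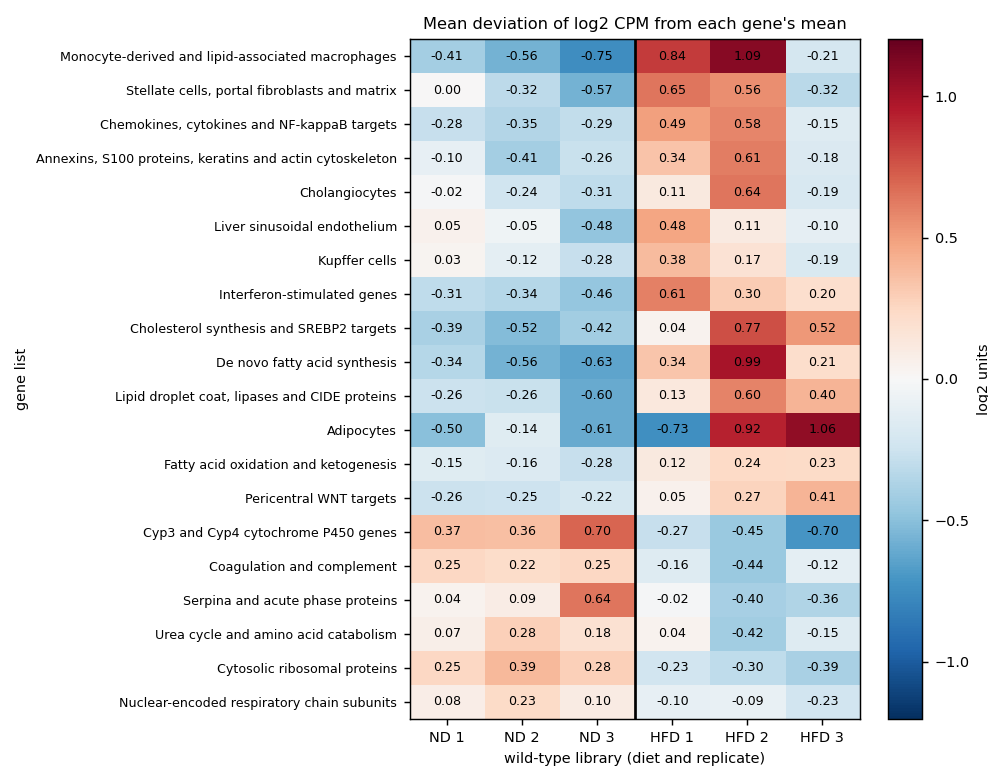
Mean deviation of log2 CPM from each gene's mean over the 6 wild-type libraries, averaged over the members of 20 lists (rows), for each library (columns), with red above and blue below the mean. Macrophage and stellate lists are highest in HFD replicates 1 and 2, cholesterol and adipocyte lists in HFD replicates 2 and 3, and ribosomal protein genes are below 0 in all 3 HFD livers.

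Ribosomal protein genes were lower as a family. All 59 cytosolic ribosomal protein genes tested had a log2 fold change below 0, 24 were called lower (40.7%) and the median was -0.62. Rps27 (ENSMUSG00000090733, chr3:90212522-90213651 on the minus strand of mm10) had 64.4, 67.2 and 69.1 CPM on ND and 32.4, 33.3 and 27.8 CPM on HFD, tight in both diets (-1.1 ± 0.16, adjusted p = 0.00538). Rpl12 had 119, 129.7 and 119 CPM on ND and 67.8, 59.6 and 61.8 CPM on HFD (-0.96 ± 0.18, adjusted p = 0.0127) and Rps26 had 65.4, 56.4 and 54.8 CPM on ND and 36.04, 31.1 and 31.4 CPM on HFD (-0.84 ± 0.15, adjusted p = 0.00981). The median was -0.43 with library size alone, with 11 members called lower, and -0.68 with the 8-locus term, with 5 called lower, and it was -0.25 in Mlkl-/- livers. Members called lower numbered 5, 2 and 3 without ND replicates 1, 2 and 3, and 10, 1 and 7 without HFD replicates 1, 2 and 3. Of 75 nuclear-encoded respiratory chain genes 66 were below 0 and 3 were called lower (Cox5b, Atp5l and Atp5j2), at a median of -0.30. The count of these calls was 0 without ND replicate 1, 2 or 3, and 0 without HFD replicate 1, 2 or 3. It was also 0 with library size alone (median -0.10) and with the 8-locus term (median -0.38). With the wild-type libraries alone it was 12, in DESeq2 7 and with the title code level 2. In Mlkl-/- livers the median of these respiratory chain genes was 0.13, above 0. Of 31 proteasome genes none was called (median -0.15).

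Pseudogenes of ribosomal protein genes took up much of the count of lower calls. Of the 400 genes called lower, 201 were protein coding and 163 were pseudogenes, or 1.5% of 13375 coding genes and 6.67% of 2444 pseudogenes tested. Of those 163, 137 matched a ribosomal protein gene best, at a median identity of 98.7%, and in all 163 the matched coding gene lay in the same direction. Of the 366 genes called higher, 336 were protein coding. Reads from a coding gene and a near-identical pseudogene may not be told apart, so these 137 do not add to the count of ribosomal protein genes. Likewise 23 called non-coding genes overlap a called coding gene, 19 on the other strand. Gm47528 and Gm10680 lie antisense to Apoa4 and had log2 fold changes of 4.38 and 4.31 beside its 4.36, and whether reads were counted by strand is not stated.

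**Figure D4:**
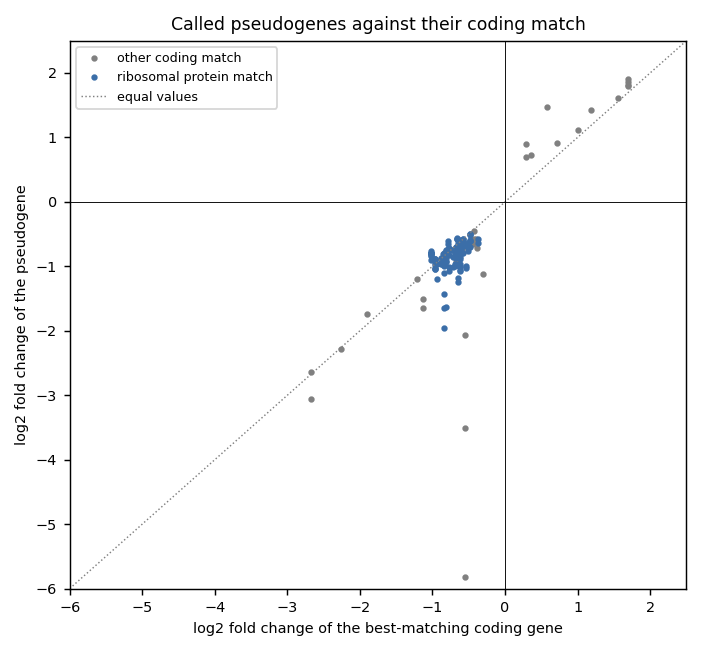
Log2 fold change (HFD over ND, wild-type) of the 175 called pseudogenes against that of the coding gene each matches best, with blue for matches to ribosomal protein genes, grey for other matches and a dotted line of equal values. All 175 lie in the quadrants of equal sign, and the ribosomal matches span -1.02 to -0.37 for the coding gene and -1.95 to -0.50 for the pseudogene.

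Smaller groups and lists without calls complete the account. The chemokine, cytokine and NF-kappaB list had 5 of 34 called higher and none lower (median 0.67), and the lysosome and autophagy list 4 of 36 (median 0.12). The first count was 1, 0 and 0 without ND replicates 1, 2 and 3, and 2, 0 and 7 without HFD replicates 1, 2 and 3. The second was 1, 1 and 0 without ND replicates 1, 2 and 3, and 2, 0 and 4 without HFD replicates 1, 2 and 3. Among 31 proteoglycan genes Gpc1, Sulf2, a heparan sulfatase (1.01 ± 0.18, adjusted p = 0.0101), and Lum were higher and the syndecan gene Sdc1 lower (-0.66 ± 0.15, adjusted p = 0.0247). Of 37 cell death genes 1 was called (2.7%, against 4.23% of all genes). It was the NF-kappaB inhibitor gene Tnfaip3 (2.91, 2.5 and 2.13 CPM on ND and 6.93, 7.25 and 4.58 CPM on HFD, 1.32 ± 0.25, adjusted p = 0.0142). No call was made in the main edgeR fit among 33 endoplasmic reticulum chaperone genes, 23 heat shock genes, 26 cell cycle genes and 19 clock genes, whose medians were -0.11, -0.04, 0.27 and 0.13. In edgeR with library size alone the calls were 1, 0, 1 and 1. With the wild-type libraries alone they were 2, 1, 1 and 0, and with the title code level 1, 0, 0 and 0. At an unadjusted p under 0.05 these lists held 7, 0, 2 and 2 genes, and DESeq2 called 0, 0, 2 and 0.

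The Mlkl-/- animals, 3 on each diet, give the same diet step in other libraries. Mlkl had 3.08, 3.73 and 3.01 CPM on ND and 5.37, 7.65 and 4.24 CPM on HFD in wild-type livers (0.82 ± 0.32, adjusted p = 0.166). Of the 766 wild-type calls 669 had the same direction in Mlkl-/- livers (87.3%), against 57.4% of genes not called. The 8-locus level was 9239, 490 and 656 raw CPM in Mlkl-/- ND replicates 1, 2 and 3. In Mlkl-/- HFD replicates 1, 2 and 3 it was 6964, 3484 and 5536, and its part in the shared direction was not tested. The median Mlkl-/- log2 fold change was 0.45 for genes called higher and -0.29 for genes called lower, nearer to 0 than the wild-type values that chose them. In Mlkl-/- livers 65 genes were called (0.359%), and 37 were called in both genotypes, all in the same direction, which is 4.83% of the wild-type calls and 56.9% of the Mlkl-/- calls. The shared calls hold Osbpl3 (2.96 in wild-type and 2.6 in Mlkl-/-), Gpc1 (2.32 and 2.28), Pltp (2.11 and 2.5), Vldlr (2.09 and 3.38), Fads1 (1.23 and 1.25), Fabp2 (1.16 and 1.68), Cyp3a11 (-2.69 and -3.14) and Ces2a (-2.27 and -1.63). Gpc1, a glypican, had 14.4, 14.8 and 9.36 CPM on ND and 54.99, 65.8 and 70.6 CPM on HFD in the wild-type livers. Hmgcs1 (1.82 and -0.03), Gpnmb (4.14 and 0.44) and Ttc39a (3.62 and -0.14) had values near 0 in the Mlkl-/- livers. The difference between the genotypes was tested as an interaction in edgeR and passed for 0 genes (1889 at an unadjusted p under 0.05, 340 of them wild-type calls; 50 genes passed in DESeq2 and 0 in limma-voom). Among the 25 cholesterol genes 12 had an unadjusted interaction p under 0.05 in edgeR, beside the 1889 of all 18098 genes. This was not particular to that list. The counts were 17 of 26 macrophage, 14 of 21 sinusoidal endothelial and 16 of 36 stellate cell and matrix genes, and 0 of 25 fatty acid oxidation genes.

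**Figure D5:**
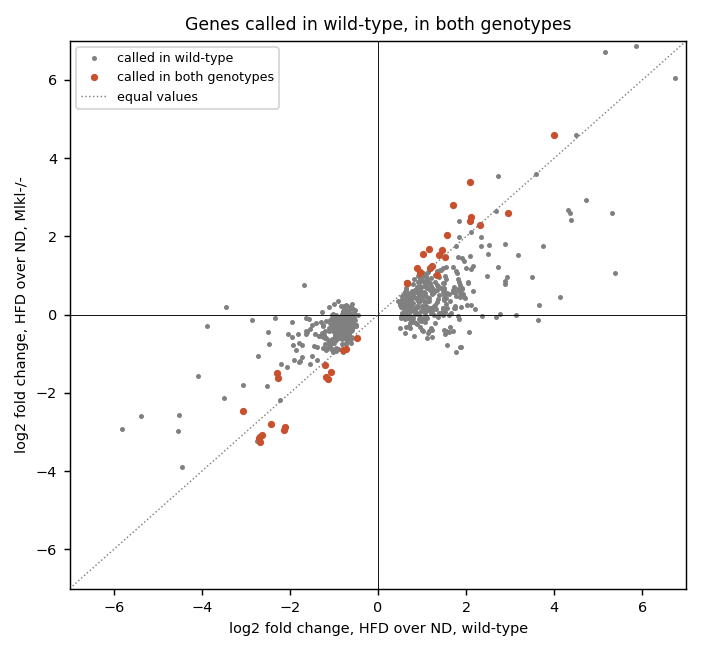
Log2 fold change, HFD over ND, of the 766 genes called in wild-type livers (horizontal) against the same genes in Mlkl-/- livers (vertical), with red for the 37 called in both genotypes and a dotted line of equal values. Most points lie in the quadrants of equal sign and nearer to 0 on the vertical axis.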

How the data were processed

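Liver RNA was measured as 3' mRNA libraries (Lexogen QuantSeq), per the labels' protocols. The submitters' processing notes name cutadapt 1.9, HISAT2, featureCounts and limma with mm10. For the other versions, the strand setting and the treatment of multi-mapping reads, nothing is stated. The deposited values are unnormalized counts of reads for 51912 Ensembl genes. A symbol was found for 51633 of them, and GENCODE M21 gave positions for 51719. Library totals were 19435391 to 32120426 counts, and counting error covers sampling only. Replicate pairs within the wild-type groups differed beyond sampling noise (chi-square per degree of freedom 19.4 to 92.1). Replicates are numbered in accession order, and p-values measure the spread between these animals.

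Groups came from the genotype and diet labels. In R 4.3.3, edgeR 4.0.16 (TMM, filterByExpr with a minimum of 10 counts and 15 in total, robust glmQLFit, glmQLFTest) was fitted to all 12 libraries (4 group means, leaving 8 degrees of freedom), with Benjamini-Hochberg adjustment over all 18098 genes. CPM uses TMM library sizes. The SE after ± was derived from the test and not taken from the fit. It is the absolute log2 fold change divided by the square root of the quasi-likelihood F statistic. The script was tested on simulated counts. The 54 gene lists (1464 symbols, 1457 matched) and the comparison were chosen with earlier results of these data known, so lists are described by counts and medians with no set test. Text names Mlkl, up to 20 called genes per direction by fold change (at least 5 CPM, no overlap), the 15 smallest p-values per direction, the 10 most abundant calls per direction and up to 4 called members per list, or 2 abundant members where none was called. Other named members were chosen after their values were seen, and a few genes are not reported here. Pseudogenes were matched to coding transcripts with minimap2 2.31, and promoter letters are from RefSeq GRCm38.p6. Alternatives were RLE factors, library size only, 2 other filters, DESeq2 1.42.0, limma-voom (limma 3.58.1), non-robust dispersions, wild-type libraries alone, title code level, 8-locus level (limit of 2000 raw CPM), and leaving out each library.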

Additional observations from a re-analysis of the deposited data

How the results depend on the processing

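The 766 calls were 1465 in DESeq2, 1431 with the wild-type libraries alone and 158 after adding the 8-locus level, and leaving out 1 library gave 63 (without wild-type HFD replicate 2) to 1233 (without Mlkl-/- ND replicate 1). Counts within 1.5 times of the reported one came from RLE factors (762), library size only (1102), no filter (922), 5 CPM in 3 libraries (793), limma-voom (808), non-robust dispersions (754) and the title code level as a term (688). A similar count need not mean the same genes: library size only kept 544 of the 766 calls and gave 921 genes higher and 181 lower. All 766 kept their direction in every setting that tested them. Interaction calls were 0 in edgeR, 1 without the filter, 2 with the 8-locus term, 50 in DESeq2, and 0 to 4 over the fits without 1 library. The share with the same direction in Mlkl-/- livers was 82.9% in DESeq2, 91.9% with the code term, 93.0% with the 8-locus term and 77.2% to 98.4% without 1 library, and the cause of these shifts was not tested. Of 149 named called genes, 45 kept their call with the 8-locus term and 32 without HFD replicate 2, and none turned direction. No paired analysis was possible because replicate numbers follow accession order and pair no animals. With 3 animals a group, and libraries of 19435391 counts or more, the number of animals limits precision.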

Other observations

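Of the 766 called genes 586 stood in none of the 54 lists, 357 of them protein coding. Ephb2, an ephrin receptor tyrosine kinase, was close to undetected on ND and rose in all 3 HFD livers (0.0427, 0.196 and 0.131 CPM on ND and 4.93, 9.38 and 1.49 CPM on HFD, 5.39 ± 0.78, adjusted p = 0.00538). Ttc39a, a tetratricopeptide repeat gene, had 0.47, 0.393 and 0.426 CPM on ND and 4.09, 8.98 and 2.89 CPM on HFD (3.62 ± 0.45, adjusted p = 0.0029), with the neighbouring antisense gene, Ttc39aos1, at 3.5. Ephb2 and Ttc39a kept their call in all 6 leave-one-out fits. Themis, known for its part in T cell selection, had 1.58, 0.982 and 1.05 CPM on ND and 11.9, 21.4 and 15.1 CPM on HFD (3.74 ± 0.69, adjusted p = 0.0201), while none of the 19 lymphocyte genes tested was called. Nrp2, a neuropilin receptor, had 9.23, 7.91 and 7.46 CPM on ND and 28.8, 30.6 and 23.8 CPM on HFD (1.76 ± 0.25, adjusted p = 0.00538), and the actin regulator gene Wipf3 had 5.94, 6.87 and 6.94 CPM on ND and 14.8, 17.8 and 17.5 CPM on HFD (1.34 ± 0.17, adjusted p = 0.0029). The adhesion receptor gene Adgrg2 had 1.03, 1.28 and 0.917 CPM on ND and 4.25, 3.67 and 4.05 CPM on HFD (1.9 ± 0.27, adjusted p = 0.00483). Teddm2 had 27.6, 26.8 and 16.4 CPM on ND and 72.6, 115 and 85.00 CPM on HFD (1.95 ± 0.26, adjusted p = 0.00483), and its span overlaps Glul on the other strand, which also rose. Chrna4, a nicotinic receptor subunit, had 1.79, 1.18 and 1.08 CPM on ND and 5.13, 17.8 and 3.81 CPM on HFD (2.73 ± 0.61, adjusted p = 0.0311), with HFD replicate 2 far above the others.

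Among genes outside the lists that fell, the prostaglandin transporter gene Slco2a1 kept its call in all 6 leave-one-out fits, with 55.6, 56.03 and 60.1 CPM on ND and 21.99, 18.3 and 31.00 CPM on HFD (-1.27 ± 0.18, adjusted p = 0.00483). The vasopressin receptor gene Avpr1a had 14.5, 13.9 and 12.8 CPM on ND and 4.97, 3.43 and 8.15 CPM on HFD (-1.33 ± 0.31, adjusted p = 0.0305). The RNA-binding protein genes Rbm4b (23.3, 27.5 and 31.4 CPM on ND and 15.7, 13.9 and 14.9 CPM on HFD, -0.89 ± 0.15, adjusted p = 0.00777) and Sfpq (52.9, 57.1 and 59.7 CPM on ND and 38.05, 32.4 and 31.6 CPM on HFD, -0.73 ± 0.12, adjusted p = 0.00879) were lower without overlap. Aox3, an aldehyde oxidase chosen here after its values were seen, had 912, 707 and 747 CPM on ND and 399.8, 271 and 443 CPM on HFD (-1.09 ± 0.24, adjusted p = 0.0226). The imprinted non-coding RNAs Meg3 and Rian, also chosen after their values were seen, were lower in wild-type livers (-2.12 and -2.11) and in Mlkl-/- livers (-2.94 and -2.87).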
